A study of Mus musculus with 6 samples.

Results

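Glycogen is the branched glucose polymer that animal cells build and break down as an energy store. Its synthesis starts on glycogenin, is extended by glycogen synthase and branched by the branching enzyme, and glycogen phosphorylase releases glucose 1-phosphate from it. The targeting subunits of the PPP1R3 family bring protein phosphatase 1 (PP1), which activates glycogen synthase and inactivates phosphorylase, to the glycogen particle. The genes described here are 10 mouse genes of this machinery among the 53700 genes counted: the targeting subunits Ppp1r3g, Ppp1r3b, Ppp1r3c, Ppp1r3d and Ppp1r3e, the synthesis genes Gys1, Gyg and Gbe1, and the phosphorylases Pygl and Pygb. They were listed by name, with symbols assigned to the Ensembl identifiers of the count tables, and the list was drawn up because Ppp1r3g was nearly silent in wild type and present in the Zar1 knockout. The difference between knockout and wild type therefore chose this list, and the values of its genes in that contrast are given as a description, without p-values.

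PolyA RNA was sequenced from Zar1 knockout (Zar -/-) and wild-type (Zar +/+) germinal vesicle (GV) oocytes on a C57BL/6N background, with 3 libraries per genotype and 10 oocytes per library. These cells wait in prophase of meiosis and stockpile maternal mRNA for later use, and ZAR1 is an oocyte RNA-binding protein. The study concerns the storage of that mRNA in a compartment at the mitochondria, and the comparison asks which mRNA levels differ in oocytes without Zar1. Neither the age of the animals nor the deleted part of Zar1 is given in the sources used here. The sample names number the libraries as biological replicates but name no animals, so their spread, and the p-values that rest on it, may be partly technical. In such pools a change in every oocyte and a change in only some of the oocytes cannot be told apart.

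Gene counts summed to between 35066851 and 37946223 per knockout library and between 32126555 and 39148833 per wild-type library. Zar1 itself had 69, 96 and 226 counts in the knockout libraries, against 15245, 13612 and 12810 in the wild-type libraries. Its paralog Zar1l had 6703, 6268 and 6572 counts in knockout, against 5093, 4643 and 3591 in wild type. Of 9 oocyte markers, all detected in every library, 5 rose (Zp1, Zp2, Zp3, Nobox and Figla) and 1 fell (Bmp15). At the same threshold, an edgeR adjusted p below 0.05, 14.9% of all 16473 tested genes rose and 18.5% fell. The oocyte markers summed to 15870 to 16686 CPM (the count relative to the library total, scaled with TMM factors) in knockout and 14660 to 15923 in wild type. Of 12 granulosa and cumulus cell markers, 8 were tested, 1 rose (Nr5a2) and 1 fell (Kitl). Their sum was 123.4 to 130.4 CPM in knockout and 104 to 117 CPM in wild type, carried mostly by Nr5a2 (77.9 ± 5.50 CPM in knockout and 51.8 ± 3.17 CPM in wild type) and Cyp19a1 (42.9 ± 7.72 CPM in knockout and 47.8 ± 5.72 CPM in wild type). Amh, Foxl2 and Ptx3 never exceeded 7 counts in a library, while knockout replicate 3 had the most Cyp11a1 (224 counts, against 38 to 118 in the others) and Hsd3b1 (77, against 11 to 43), and knockout replicate 2 had 47 counts of Fshr, against 0 to 8 in the others. Erythroid globins and Cd3e had 0 counts in all libraries, the leukocyte markers summed to 0.945 to 2.50 CPM in knockout and 0.794 to 1.29 CPM in wild type, and of the stromal and endothelial markers, at 29.4 to 33.1 CPM in knockout and 23.8 to 24.99 CPM in wild type, only Pecam1, which rose, had more than 6 counts in a library. The part of other cells in the results below was not tested.

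The starts of 3 targeting subunit genes are shown because their transcripts behaved differently: Ppp1r3g was present almost only in knockout oocytes, Ppp1r3d was abundant in both genotypes, and Ppp1r3c was close to silent in both. Each sequence runs 5′ to 3′ over 300 bases, from 250 before to 50 after the start of the gene in RefSeq (build GRCm38.p6), and capitals mark CpG dinucleotides. They lie at chr13:35967656-35967955 on the + strand (Ppp1r3g), chr2:178414414-178414713 on the - strand (Ppp1r3d) and chr19:36736555-36736854 on the - strand (Ppp1r3c).
Ppp1r3g: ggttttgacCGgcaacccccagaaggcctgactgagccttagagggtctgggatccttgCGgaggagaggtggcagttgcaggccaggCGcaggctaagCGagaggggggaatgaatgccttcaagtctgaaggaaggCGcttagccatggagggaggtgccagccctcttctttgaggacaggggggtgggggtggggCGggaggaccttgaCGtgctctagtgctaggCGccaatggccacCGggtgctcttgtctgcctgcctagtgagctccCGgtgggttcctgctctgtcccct
Ppp1r3d: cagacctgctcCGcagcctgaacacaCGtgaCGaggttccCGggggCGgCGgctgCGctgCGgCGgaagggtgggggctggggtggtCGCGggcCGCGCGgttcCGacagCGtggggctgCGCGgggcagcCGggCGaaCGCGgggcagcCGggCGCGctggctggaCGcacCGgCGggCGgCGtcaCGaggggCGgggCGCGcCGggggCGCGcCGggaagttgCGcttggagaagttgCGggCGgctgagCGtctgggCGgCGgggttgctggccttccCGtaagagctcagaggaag
Ppp1r3c: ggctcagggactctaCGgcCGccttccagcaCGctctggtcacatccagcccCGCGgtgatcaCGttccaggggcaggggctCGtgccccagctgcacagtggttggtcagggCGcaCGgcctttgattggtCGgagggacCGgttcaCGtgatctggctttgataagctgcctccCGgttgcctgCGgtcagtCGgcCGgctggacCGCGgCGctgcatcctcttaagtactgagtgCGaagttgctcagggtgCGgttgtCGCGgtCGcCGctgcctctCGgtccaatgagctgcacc

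The promoter of Ppp1r3g held 10 CpG dinucleotides, an observed over expected ratio of 0.352, whereas that of Ppp1r3d held 45 (ratio 1.09) and that of Ppp1r3c held 26 (ratio 0.813). The median of all 32851 promoters of the table was 7 CpG and a ratio of 0.384, and 98.1% of them had fewer CpG than Ppp1r3d, against 56.5% for Ppp1r3g. Of the 10 genes, 8 were in the table (Ppp1r3b and Ppp1r3e were not), and Ppp1r3g had the fewest CpG among them, the others holding between 14 and 45. The E-box letters CACGTG, searched on both strands, occurred in 3 of the 8 (Ppp1r3c, Ppp1r3d and Gyg) and in 7.15% of all promoters. CCAAT occurred in 3 (Ppp1r3c, Ppp1r3g and Gys1) against 37.4% of all, and TATAAA in 0 against 13.6%. In the 3′ untranslated regions, the cytoplasmic polyadenylation element TTTTAT was searched within 100 bases before a polyadenylation hexamer (AATAAA or ATTAAA in the last 40 bases). It was found in 0 of the 8 genes that had such a hexamer (all but Gys1 and Gbe1) and in 15.9% of 9800 tested genes with one. Outside that window the letters were not absent: 5 of the 10 genes held TTTTAT somewhere in the 3′ untranslated region. No share over all genes was taken for that wider search. These matches and their absence describe letters in the stated stretches only.

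Ppp1r3g, which encodes a glycogen-targeting subunit of PP1, had 280, 202 and 679 counts in the knockout libraries, against 0, 0 and 2 in the wild-type libraries. All knockout libraries lay far above all wild-type libraries, and knockout replicate 3 held 58.5% of the knockout reads. In CPM the levels were 8.02, 5.42 and 18.6 in knockout, with a mean of 10.7 ± 6.97, against 0.0205 ± 0.0356 in wild type (SD, n = 3 each). The count ratio was 576 with a 95% counting interval of 159 to 4764, which covers counting error only, and the fitted log2 fold change was 8.92 ± 0.83 (SE). Because 2 reads set the wild-type level, the fitted value moved to 11.62 without wild-type replicate 3, which held both of them. Without knockout replicate 3 the knockout mean was 6.72 CPM and the log2 fold change 8.25.

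The spread of Ppp1r3g among knockout libraries was wide for its level. Its coefficient of variation was 65.3%, against a median of 15.3% over the 3159 tested genes whose knockout mean lay between 5 and 20 CPM, and 98.7% of those genes varied less. The level of Ppp1r3g in knockout replicate 3 was 2.32 times that in replicate 1 and 3.43 times that in replicate 2. Knockout replicate 3 also had the most Zar1 among the knockout libraries, at 6.18 CPM, against 1.98 CPM in replicate 1 and 2.58 CPM in replicate 2. The same library had the most Cyp11a1, Hsd3b1 and Inha reads of the 6, but the lowest Cyp19a1 level (35.6 CPM) and 0 Fshr counts. The other granulosa and cumulus cell markers did not share a direction in it. Neither the part of other cells in the level of Ppp1r3g nor its relation to the Zar1 reads was tested. Only 6 tested genes had at most 3 counts over the wild-type libraries together, and of these Ppp1r3g was the only one with at least 100 counts in every knockout library, limits that were set after its values were seen. Genes with so few wild-type counts passed the count filter only through their knockout libraries, so nothing is read from these numbers.

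None of the 3 tested genes next to Ppp1r3g passed the test, beside 33.4% of all tested genes. Rpp40, a subunit of RNase P on its upstream side, had 6.57 ± 0.990 CPM in knockout and 6.81 ± 0.780 CPM in wild type (log2 fold change -0.05 ± 0.19, edgeR adjusted p = 0.86). Lyrm4, an iron-sulfur cluster assembly factor, was the first gene with counts after the end of Ppp1r3g, on the opposite strand. It had 118 ± 16.7 CPM in knockout and 99.5 ± 4.65 CPM in wild type (0.24 ± 0.11, edgeR adjusted p = 0.113). The other flanking genes with counts were the noncoding RNA Gm48746, with at most 4 counts in a library, and the pseudogene Tmed10-ps. The level of Tmed10-ps was 1.32 ± 0.0844 CPM in knockout and 1.09 ± 0.135 CPM in wild type (0.27 ± 0.30, edgeR adjusted p = 0.52). Gm30127, which overlaps Ppp1r3g on the opposite strand with no shared exon base, had 7, 0 and 2 counts in knockout and 0 in each wild-type library.

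The genes whose level followed that of Ppp1r3g most closely over the 6 libraries were Sp110, Sbno2, Rps6ka1, Dusp8 and Odf2, with Pearson's r of log2 CPM between 0.995 and 0.999. The correlation carries the genotype difference and ignores its size, and 551 tested genes had an r above 0.95. Ppp1r3g had 0, 0 and 2 counts in wild type, so its differences among those libraries rest on 2 reads of replicate 3. Each of the named genes also had its highest wild-type level in replicate 3. How far the ranking depends on those 2 reads was not tested, and nothing is read from its order. Dusp8, a phosphatase of MAP kinases, had 148, 112 and 157 counts in knockout, against 13, 11 and 17 in wild type, a level of 3.85 ± 0.729 CPM in knockout and 0.386 ± 0.119 CPM in wild type. Sp110, a nuclear body protein gene, differed far less, with 87.5 ± 2.23 CPM in knockout and 66.6 ± 3.33 CPM in wild type.

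**Figure D1:**
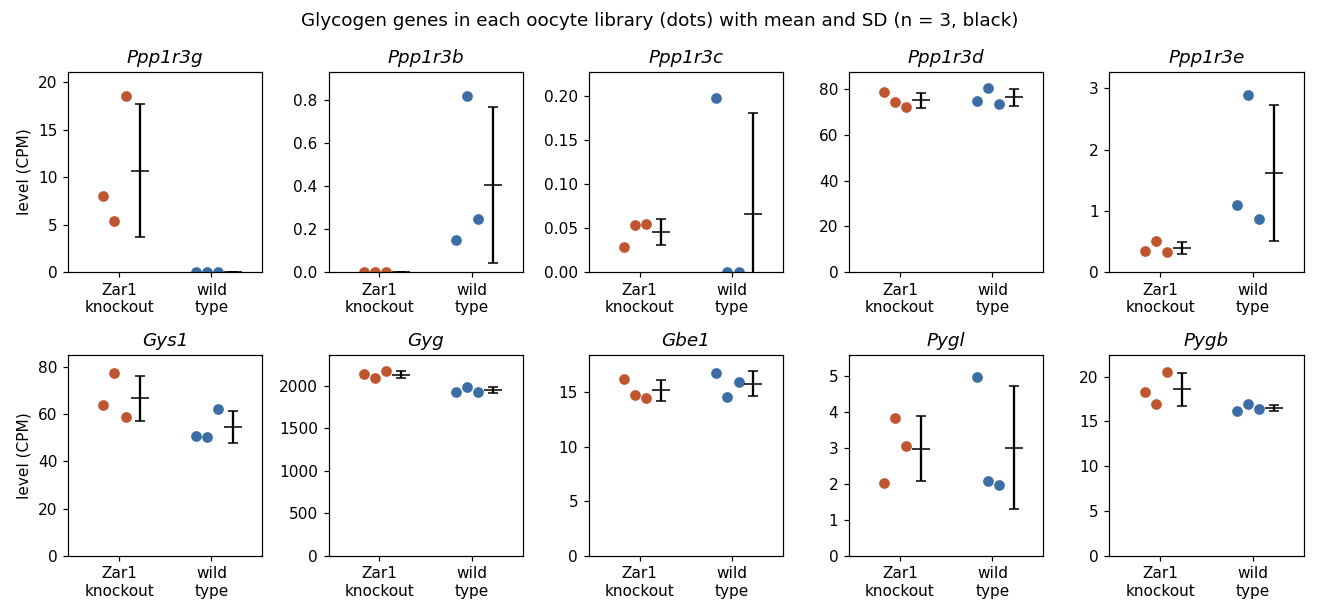
Level of each of the 10 glycogen genes in CPM (y axis, from 0, own scale per gene) in the Zar1 knockout and wild-type libraries; dots are libraries, and the black bar is the mean with its SD (n = 3, cut off at 0). Ppp1r3g lies at 5.42 to 18.6 CPM in knockout with 2 wild-type libraries at 0, Ppp1r3b is at 0 in all knockout libraries, and Ppp1r3d and Gbe1 overlap between the genotypes.

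The other targeting subunits of the list did not follow Ppp1r3g. Ppp1r3d, the most abundant of them, had 78.5, 74.1 and 72.2 CPM in the knockout libraries, against 74.7, 80.5 and 73.5 CPM in the wild-type libraries. The groups overlapped, and the log2 fold change was -0.03 ± 0.08, close to 0 with a sign that turned to 0.02 under upper-quartile scaling and to 0.01 without wild-type replicate 2. Ppp1r3e had 12, 19 and 12 counts in knockout, against 44, 102 and 28 in wild type. All knockout libraries lay below all wild-type libraries at 0.394 ± 0.101 CPM in knockout and 1.62 ± 1.11 CPM in wild type, a log2 fold change of -2.03 ± 0.53 that became -1.31 without wild-type replicate 2, which held 58.6% of the wild-type reads.

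Ppp1r3b, the subunit known as GL in liver, had 0 counts in each knockout library, against 6, 29 and 8 in wild type. With a floor of 3 counts over the knockout libraries together, its knockout level was 14.4-fold lower, a value that takes the wild-type counts as exact. The 95% counting interval of the knockout over wild-type ratio reached 0.0889, which allows a smaller fold. The wild-type level was itself only 0.406 ± 0.364 CPM, and wild-type replicate 2 held 67.4% of those reads. Without that replicate the same floor gave a 6.98-fold lower level. Ppp1r3c, known as PTG (protein targeting to glycogen), had 1, 2 and 2 counts in knockout and 8, 0 and 0 in wild type, so both genotypes were near the limit of detection. The family members outside the list were also rare: Ppp1r3f had 8, 4 and 27 counts in knockout and 6, 0 and 1 in wild type, and Ppp1r3a, the muscle subunit, at most 6 counts in a library. The count ratio of Ppp1r3f was 5.53 (95% counting interval 2.45 to 14.7), with overlapping groups and its highest level in knockout replicate 3. Ppp1r3b and Ppp1r3c did not pass the filter on low counts, and the other 8 genes did; Ppp1r3g passed it through its knockout libraries.

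Per kilobase of exon, the 7 targeting subunits summed to 27.2 ± 2.18 CPM per kb in knockout and 24.1 ± 1.6 CPM per kb in wild type, and the groups overlapped. Ppp1r3d made up 88.3%, 90.9% and 75.4% of this sum in the knockout libraries, against 97.6%, 95.0% and 98.2% in the wild-type libraries. Ppp1r3g was second in knockout, with 10.9%, 8.06% and 23.5%, against 0%, 0% and 0.0998% in wild type. Ppp1r3e was second in wild type, at 0.588 ± 0.198% in knockout and 2.60 ± 1.61% in wild type (SD, n = 3 each).

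The enzymes of glycogen synthesis were present in both genotypes at similar levels. Gyg, which encodes glycogenin, the protein primer of the glycogen particle, had 2135, 2087 and 2170.05 CPM in the knockout libraries, against 1925, 1987 and 1926 CPM in the wild-type libraries. All knockout libraries lay above all wild-type libraries, by a log2 fold change of 0.13 ± 0.06 that ranged from 0.09 with library sizes alone to 0.18 under upper-quartile scaling. Gys1, the glycogen synthase of muscle and most other tissues, had 64.0, 77.4 and 59.0 CPM in knockout, against 50.9, 50.4 and 62.5 CPM in wild type, and the groups overlapped (log2 fold change 0.29 ± 0.13). Of the 4789 exon bases of Gys1, 310 are shared with Ruvbl2 on the opposite strand, and since the strand setting of the counting is not given, its counts are uncertain to that extent; Ruvbl2 had 4743, 4681 and 4628 counts in knockout and 4072, 3294 and 2919 in wild type. Gbe1, the branching enzyme, had 15.2 ± 0.930 CPM in knockout and 15.8 ± 1.14 CPM in wild type, again with overlapping groups (-0.06 ± 0.13).

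Of the phosphorylases, Pygb was near the middle of the tested genes by level per length (percentile 59.0 in knockout and 55.9 in wild type) and Pygl was low (percentile 21.7 in knockout and 20.7 in wild type). Pygb, the brain form, had 18.2, 16.96 and 20.5 CPM in knockout, against 16.2, 16.9 and 16.4 CPM in wild type (log2 fold change 0.17 ± 0.12). The lowest knockout library was barely above the highest wild-type library. Pygl, the liver form, had 71, 143 and 112 counts in knockout, against 201, 73 and 64 in wild type, and its log2 fold change of -0.02 ± 0.41 took values from -0.25 to 0.55 when single libraries were left out. Wild-type replicate 1 alone stood above the knockout range.

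At a Benjamini-Hochberg adjusted p of 0.05 in edgeR's quasi-likelihood test, 1 of the 8 tested members was higher in knockout (Ppp1r3g) and 1 was lower (Ppp1r3e), while 33.4% of all 16473 tested genes passed, 14.9% higher and 18.5% lower. The groups did not overlap in 4 of the 8, against 47.8% of all tested genes. Since this contrast chose the list, nothing is read from these counts. The median log2 fold change of the 8 was 0.05, beside 0.01 over all tested genes. Apart from Ppp1r3g and Ppp1r3e, the values lay between -0.06 and 0.29.

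Ordered by level per length, Gyg stood far above the other genes. It had 909 ± 17.7 CPM per kb of exon in knockout and 830.2 ± 15.2 in wild type, rank 31 in knockout and rank 36 in wild type among 16430 tested genes with a known length. That was 65.2 times the level of Gys1 in knockout and 72.8 times in wild type. Ppp1r3d followed with 22.9 ± 0.988 CPM per kb in knockout and 23.3 ± 1.14 in wild type, and Gys1 with 13.9 ± 1.99 in knockout and 11.4 ± 1.42 in wild type, both steps wider than the spread between libraries. In wild type the order went on with Pygb (3.43 ± 0.0785 CPM per kb), Gbe1 (2.95 ± 0.214), Ppp1r3e (0.645 ± 0.443), Pygl (0.437 ± 0.249), Ppp1r3b (0.0653 ± 0.0586) and Ppp1r3c (0.0243 ± 0.0421), with Ppp1r3g last. Ppp1r3e and Pygl did not differ beyond their spread, nor did Ppp1r3c and its neighbours. With the length of the longest transcript in place of all exons, Gbe1 passed Pygb and Pygl passed Ppp1r3e. In knockout Ppp1r3g came next after Gys1, at 3.96 ± 2.59 CPM per kb, not separable from Pygb (3.86 ± 0.375) or Gbe1 (2.83 ± 0.174).

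**Figure D2:**
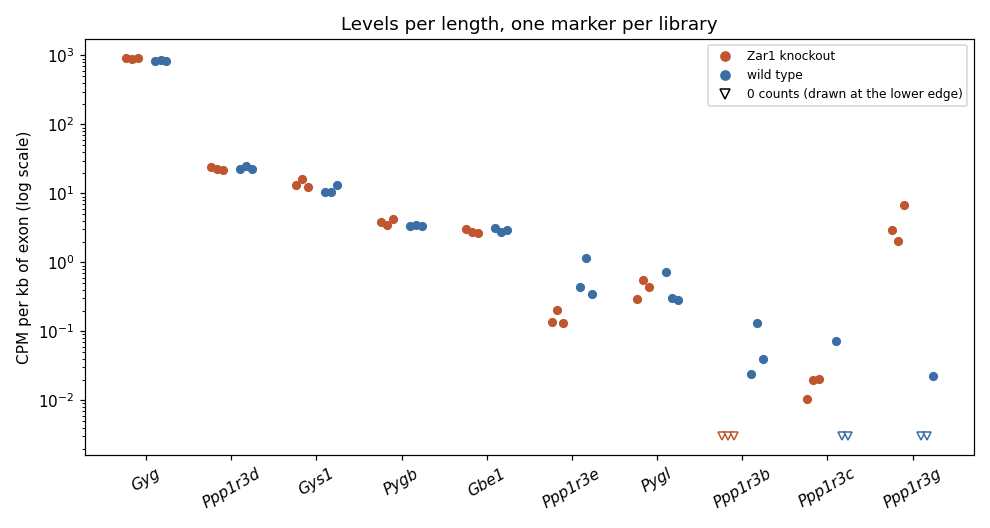
Level of the 10 glycogen genes in CPM per kilobase of exon (log axis) in each Zar1 knockout and wild-type library, ordered by the wild-type mean; open triangles are libraries with 0 counts, drawn at the lower edge. Gyg lies near 909 CPM per kb in knockout and 830.2 in wild type, and Ppp1r3g is the gene whose place in the order differs most between the genotypes.

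The rest of the glycogen pathway, 37 genes outside the list of which 29 were tested, changed in both directions: 4 rose, 5 fell and 20 did not pass, a share of 31% beside 33.4% of all tested genes, with a median log2 fold change of -0.11. The 8 genes below the filter were Ppp1r3a, Ppp1r3f, Hk1, Hk3, G6pc, Pygm, Nhlrc1 and Prkag3. The list of glucose phosphate and UDP-glucose metabolism gave 3 falls, 0 rises and 6 that did not pass, and among the 6 are Gys2, the liver glycogen synthase, and G6pc3 and Slc37a4, which act in glucose 6-phosphate hydrolysis. The largest fall was that of Pgm1, the phosphoglucomutase that interconverts glucose 6-phosphate and glucose 1-phosphate, with 35, 112 and 59 counts in knockout, against 378, 345 and 333 in wild type. Its groups lay far apart, at 1.87 ± 1.03 CPM in knockout and 9.81 ± 0.436 CPM in wild type (log2 fold change -2.38 ± 0.35, edgeR adjusted p = 0.00104). Pgm2l1, a glucose 1,6-bisphosphate synthase, fell to 19.7 ± 2.02 CPM in knockout, against 29.2 ± 2.53 CPM in wild type (-0.57 ± 0.12, edgeR adjusted p = 0.00776). Ugp2, which makes the UDP-glucose that glycogen synthase uses, fell to 14.1 ± 0.299 CPM in knockout, against 18.9 ± 2.98 CPM in wild type (-0.42 ± 0.14, edgeR adjusted p = 0.0497), a call at the threshold that was lost in 12 of 15 alternatives (adjusted p between 0.03 and 0.184). The hexokinase gene Hk2 had 2.17 ± 0.329 CPM in knockout and 1.76 ± 0.378 CPM in wild type and did not pass (edgeR adjusted p = 0.458).

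Within the phosphoglucomutase family, Pgm1 supplied 5.54%, 16.1% and 9.31% of the summed CPM per kb in the knockout libraries, against 31.1%, 34.5% and 33.8% in the wild-type libraries. Pgm2 supplied 56.4 ± 1.80% in knockout and 36.8 ± 0.323% in wild type, while its own level was 8.997 ± 0.207 CPM in knockout and 9.68 ± 0.413 CPM in wild type (edgeR adjusted p = 0.604). The family sum was 6.17 ± 0.220 CPM per kb in knockout and 10.1 ± 0.374 CPM per kb in wild type. For each of these, an exact two-sided permutation test gave p = 0.1, the smallest that 3 against 3 libraries allow, and 0.114 after adjustment over 8 family shares (0.15 over 3 family sums).

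All 3 catalytic subunits of PP1, the phosphatase that the targeting subunits carry, passed the test, as did 33.4% of all tested genes. Ppp1ca rose to 143 ± 27.9 CPM in knockout, against 106 ± 6.34 CPM in wild type (log2 fold change 0.43 ± 0.13, edgeR adjusted p = 0.0313). Ppp1cc fell to 33.3 ± 3.86 CPM in knockout, against 46.2 ± 1.46 CPM in wild type (-0.47 ± 0.11, edgeR adjusted p = 0.00955), and Ppp1cb to 49.8 ± 1.28 CPM, against 60.1 ± 3.32 CPM in wild type (-0.27 ± 0.08, edgeR adjusted p = 0.0359). The call of Ppp1ca was lost without wild-type replicate 1, 2 or 3, and that of Ppp1cb in 8 of 15 alternatives, among them upper-quartile scaling. Per kb, Ppp1ca made up 77.9%, 79.1% and 81.9% of PP1 catalytic subunit RNA in the knockout libraries, against 68.2%, 69.1% and 69.2% in the wild-type libraries (exact two-sided permutation p = 0.1, adjusted 0.114).

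**Figure D3:**
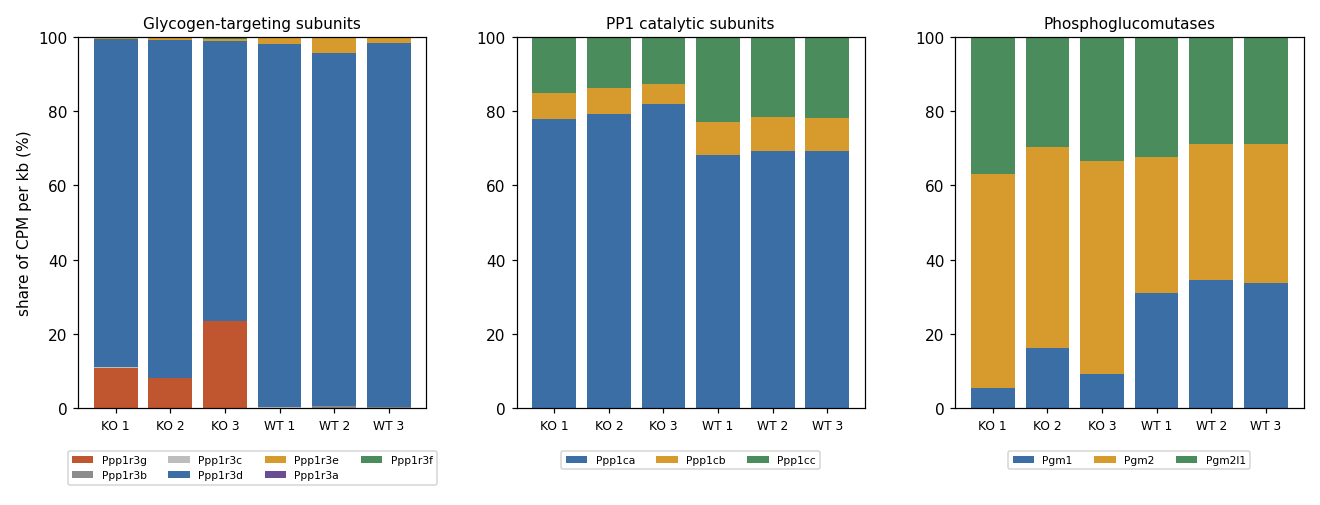
Share of each gene in the summed CPM per kb (y axis, percent) of the glycogen-targeting subunits, the PP1 catalytic subunits and the phosphoglucomutase family, one bar per library, with knockout (KO) libraries 1 to 3 left of wild-type (WT) libraries 1 to 3. Ppp1r3g takes 8.06% to 23.5% of the targeting subunits in knockout, Ppp1ca is above its wild-type share in every knockout library, and Pgm1 is below its wild-type share in every knockout library.

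Of the genes for glycogen breakdown, 0 of 7 tested genes passed in edgeR, beside 33.4% of all tested genes. Gaa, the lysosomal glucosidase, had 36.4 ± 4.68 CPM in knockout and 32.9 ± 3.46 CPM in wild type, with overlapping groups (log2 fold change 0.15 ± 0.13). The phosphorylase kinase subunit Phka1 had 19, 14 and 35 counts in knockout and 112, 34 and 41 in wild type, with groups barely apart and an edgeR adjusted p of 0.0619, and it passed in 3 of 15 alternatives.

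Among regulators, 3 of 10 tested genes rose and 0 fell, a share of 30% beside 33.4% of all tested genes. Gsk3a, a kinase that phosphorylates and inhibits glycogen synthase, had 756, 490 and 475 counts in knockout, against 322, 287 and 195 in wild type, and rose to 15.9 ± 4.95 CPM in knockout, against 7.38 ± 1.19 CPM in wild type (log2 fold change 1.11 ± 0.23, edgeR adjusted p = 0.00655). Its paralog Gsk3b had 78.3 ± 16.3 CPM in knockout and 69.6 ± 4.04 CPM in wild type and did not pass (0.17 ± 0.14, edgeR adjusted p = 0.377). Of the AMP-activated protein kinase, which senses low energy and whose beta subunits bind glycogen, the catalytic subunit Prkaa2 rose to 31.6 ± 3.20 CPM in knockout, against 19.2 ± 1.90 CPM in wild type (0.71 ± 0.13, edgeR adjusted p = 0.00291), and the beta subunit Prkab1 to 263 ± 18.7 CPM, against 192 ± 13.7 CPM in wild type (0.45 ± 0.08, edgeR adjusted p = 0.00369). The other AMP-activated protein kinase genes tested did not pass. Prkaa1, which made up 89.7 ± 1.43% of the alpha subunit RNA per kb in knockout and 92.5 ± 0.805% in wild type, had a log2 fold change of 0.22 ± 0.08 (edgeR adjusted p = 0.0637), Prkab2 of -0.32 ± 0.24 (adjusted p = 0.349), Prkag1 of -0.36 ± 0.53 (adjusted p = 0.642) and Prkag2 of -0.74 ± 0.39 (adjusted p = 0.182). Stbd1, a glycogen-binding protein linked to the delivery of glycogen to lysosomes, had 190.0 ± 13.0 CPM in knockout and 186 ± 11.1 CPM in wild type, with overlapping groups (0.03 ± 0.08, edgeR adjusted p = 0.813).

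**Figure D4:**
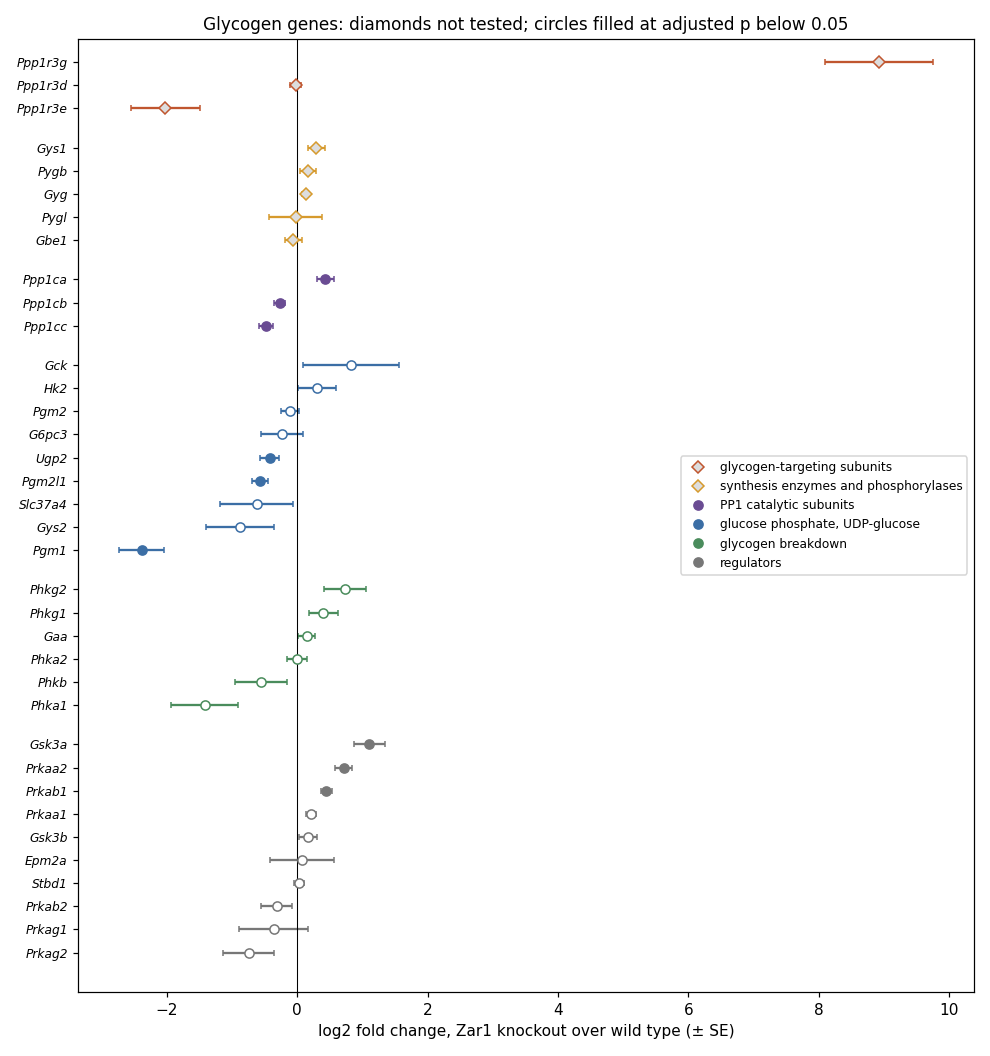
Log2 fold change of Zar1 knockout over wild type with its SE (x axis) for the 8 tested glycogen genes of the list (diamonds, description only) and 28 of the 29 tested genes of the rest of the pathway (circles, filled at an edgeR adjusted p below 0.05), grouped by role. Ppp1r3g stands alone at 8.92, and the filled circles comprise 4 genes to the right of 0 and 5 to the left, with Pgm1 farthest left at -2.38.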

How the data were processed

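For each library the authors deposited a table of whole-number read counts for every gene, not normalized. The submitters' processing notes name the genome build mm39 and the tools HTSeq 0.13.5, STAR 2.7.8a, bcl2fastq 2.20.0.422 and cutadapt 2.8. Neither the annotation release nor the strand setting is given in the sources used here. Rows that name no gene entered neither library sizes nor tests. Within a library, reads outside genes made up 4.84% to 4.98% in knockout and 5.39% to 5.70% in wild type, reads in more than 1 gene 4.27% to 4.42% in knockout and 4.21% to 4.24% in wild type, and reads with more than 1 alignment 13.9% to 15.0% in knockout and 14.4% to 14.9% in wild type.

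Of 53700 gene rows, 52093 had a symbol. Genotype was tested in the quasi-likelihood model of edgeR 4.0.16 (R 4.3.3) after filterByExpr and TMM scaling, without a further term and with a Benjamini-Hochberg adjusted p of 0.05 over 16473 genes, after the same steps had been tested on simulated counts. Levels are CPM as mean ± SD over 3 libraries, and standard errors are the absolute log2 fold change over the square root of F. Levels are relative to the library, so they cannot show a change in the mRNA content of an oocyte. Count ratios carry exact binomial 95% intervals, which cover counting error only, since no molecular identifiers were used here. A zero was bounded with 3 counts. Lengths and 3′ untranslated regions came from GENCODE M21 (GRCm38, an older build than mm39), and of each gene the coding transcript with the longest 3′ region was searched. Promoters came from RefSeq (GRCm38.p6).

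The members, gene lists and tests were chosen with earlier results of these data known. Named genes are all members, Zar1, and the largest rises and falls (up to 6 each) among other called glycogen genes. The 5 genes most like Ppp1r3g by Pearson's r of log2 CPM with a prior count of 0.5, and its nearest flanking genes with counts, are also named. Genes named beyond these were chosen after their values were seen. Libraries of a genotype differed by more than sampling noise (chi-square over degrees of freedom 12.8 to 39.9), so none was counted as a duplicate. Alternatives were DESeq2 1.42.0, limma-voom (limma 3.58.1), looser and stricter count filters, library sizes alone, RLE (relative log expression) or upper-quartile factors, the replicate number as a block, an adjusted p of 0.01, each library left out in turn, and the longest transcript as length. The values of 1 gene of the pathway are not reported here; it is counted with its list. The fold of Ppp1r3b against its floor without single wild-type libraries was added after its values were seen.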

Additional observations from a re-analysis of the deposited data

How the results depend on the processing

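In 15 alternatives Ppp1r3g stayed higher in knockout wherever a fold change was computed, and leaving out single libraries gave log2 fold changes from 8.25 to 11.62, the highest without wild-type replicate 3, where the wild-type counts are 0 and the value depends on the prior count. The count of other glycogen genes that fell, 5, became 3 under upper-quartile factors, with the replicate block, at an adjusted p of 0.01, and without knockout replicate 1 or 2 or wild-type replicate 2 or 3; leaving out single libraries gave 3 to 6. The count that rose, 4, lay between 3 and 5 without single libraries. Of the 9 called genes, 6 (Pgm1, Pgm2l1, Ppp1cc, Gsk3a, Prkaa2 and Prkab1) passed in all 15. The numbers of all genes higher and lower, 2448 and 3051, became 1171 and 1861 at an adjusted p of 0.01. Without single libraries they ranged from 1541 (without wild-type replicate 3) to 2509 and from 2285 to 3125. Same-numbered libraries did not deviate together over all tested genes (correlations of -0.01, -0.04 and -0.02), which gives no sign that the numbers pair the samples. A pairing that affects only some genes could not be seen in this way. Among the list's genes no called fold change changed sign; Pygl did so in 5 and Ppp1r3d in 2 of 14 alternatives, and Ppp1r3e was not called at an adjusted p of 0.01 or without knockout replicate 1 or wild-type replicate 2. Calls were also gained: 2 members were higher under upper-quartile factors, where 2811 of all 16473 tested genes were higher. With no filter beyond 1 count 2 members were lower, beside 3396 of all 34886 genes tested in that setting. Since the contrast chose the list, nothing is read from these member counts. The length of the longest transcript moved levels per kb, most for Pygl, which had 0.945 in knockout and 0.956 in wild type in place of 0.432 and 0.437. The causes of these shifts were not tested. Depth limits Ppp1r3b, Ppp1r3c and the wild-type level of Ppp1r3g, each of which rests on a few reads.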

Other observations

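Other regulatory subunits of PP1, listed without regard to how they act on the phosphatase, also changed in both directions. Of 33 such genes 23 were tested, and 8 rose, 3 fell and 12 did not pass, a share of 47.8% beside 33.4% of all tested genes, with a median log2 fold change of 0.39 beside 0.01 over all tested genes. The largest fall was that of Ppp1r15b, which directs PP1 to the translation factor eIF2, with 654, 643 and 890 counts in knockout, against 3040, 2649 and 2398 in wild type (log2 fold change -1.90 ± 0.13, edgeR adjusted p = 3.15e-05). Ppp1r15a, which has the same role under stress, rose to 50.05 ± 1.81 CPM in knockout, against 31.0 ± 3.48 CPM in wild type (0.69 ± 0.11, edgeR adjusted p = 0.00135). Ppp1r13b, which encodes the p53-binding protein ASPP1, was the most abundant of them and rose to 860.4 ± 85.8 CPM in knockout, against 527 ± 39.8 CPM in wild type (0.71 ± 0.09, edgeR adjusted p = 0.000559).

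Ppp1r3b was among 11 genes with 0 counts in all knockout libraries and at least 40 over the wild-type libraries, a limit set after its values were seen. Prkag1, a gamma subunit of AMP-activated protein kinase, had 430, 1149 and 471 counts in the knockout libraries and 515, 1628 and 423 in the wild-type libraries, so replicate 2 was the highest of each genotype, and the groups overlapped.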
